A study of Mus musculus with 6 samples.

Results

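Cdkn1a, which encodes the cyclin-dependent kinase inhibitor p21, was examined together with 9 genes of the p53 pathway in the ventral lumbar spinal cord of SOD1G93A mice. These mice carry a mutant human superoxide dismutase 1 transgene and serve as a model of amyotrophic lateral sclerosis. Cdkn1a was selected on the values of this same comparison, chosen by its lower normalized counts after treatment, so its difference is given as a description without a test. The other 9 genes, Trp53, Mdm2, Ccng1, Trp53inp1, Sesn1, Bax, Phlda3, Zmat3 and Pmaip1, were chosen as p53 or its well-known targets, to see whether the output of p53 moved with it. The 10 genes were found by symbol among the 28162 genes of the deposited table, and all 10 passed the filter on low values that left 17480 genes for testing.

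Both groups were SOD1G93A and were given a viral vector (AAV, adeno-associated virus) intrathecally at postnatal day 74; the cord was collected at day 104, 30 days after injection. The AAV-GFP group (3 libraries) received a vector for green fluorescent protein and was the control. The AAV-NDNF group (3 libraries) received a vector for NDNF, a secreted neurotrophic factor. Untreated mutants and mice without the transgene were not analysed here. The sources used here name neither the promoter of the vectors nor the cells they reach. The titles number the libraries as biological replicates without saying how many animals each holds, so p-values measure the spread between these 6 samples.

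Between 15335789 and 20060987 reads per library were assigned to genes. Ndnf itself separated the groups, at 128 to 171 normalized counts in the control libraries and 674 to 7077 after AAV-NDNF, with AAV-NDNF library 3 the lowest of its group. The tissue label was checked against marker genes: all 8 Hox genes of the lumbar list and all 10 motor neuron markers were detected and tested. Of the Hox genes 7 of 8 were above 0 (median log2 difference 0.19) and 2 did not overlap between the groups (4.26% of all genes in that direction), with 0 at an unadjusted p under 0.05 in limma or edgeR; a part of cord level in the results was not tested. Values below are the authors' normalized read counts. Log2 differences are the AAV-NDNF mean minus the AAV-GFP mean of log2(normalized count + 1), ± is the SD over n = 3 libraries, and intervals are 95% intervals from limma.

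p53, encoded by Trp53, is a transcription factor that is kept scarce by the ubiquitin ligase Mdm2 and accumulates after DNA damage and other stress, largely through its protein rather than its transcript. It then induces a set of genes that halt the cell cycle, trigger apoptosis, adjust metabolism or repair DNA, and it induces Mdm2, which closes a feedback loop. p21 is the best known arrest gene of that set; it binds cyclin-dependent kinases and the replication clamp PCNA. Cdkn1a is also induced by signals that do not pass through p53, and p53 signalling has long been studied in motor neuron degeneration.

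Cdkn1a was lower in all 3 AAV-NDNF libraries than in any control. It stood at 780.3, 726 and 837 normalized counts in AAV-GFP libraries 1 to 3 and at 435, 413 and 551 in AAV-NDNF libraries 1 to 3. The groups did not overlap: the lowest control was 1.32-fold above the highest AAV-NDNF library, which was library 3. The mean decreased by 40.3%, from 781 ± 55.7 to 466 ± 74.1, a log2 difference of −0.75 (SE 0.14). In the authors' deposited table Cdkn1a has a log2 fold change of −0.74 (SE 0.16). These values chose the gene and support nothing further. Since this is bulk RNA, fewer cells with the transcript and less transcript per cell cannot be told apart.

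**Figure D1:**
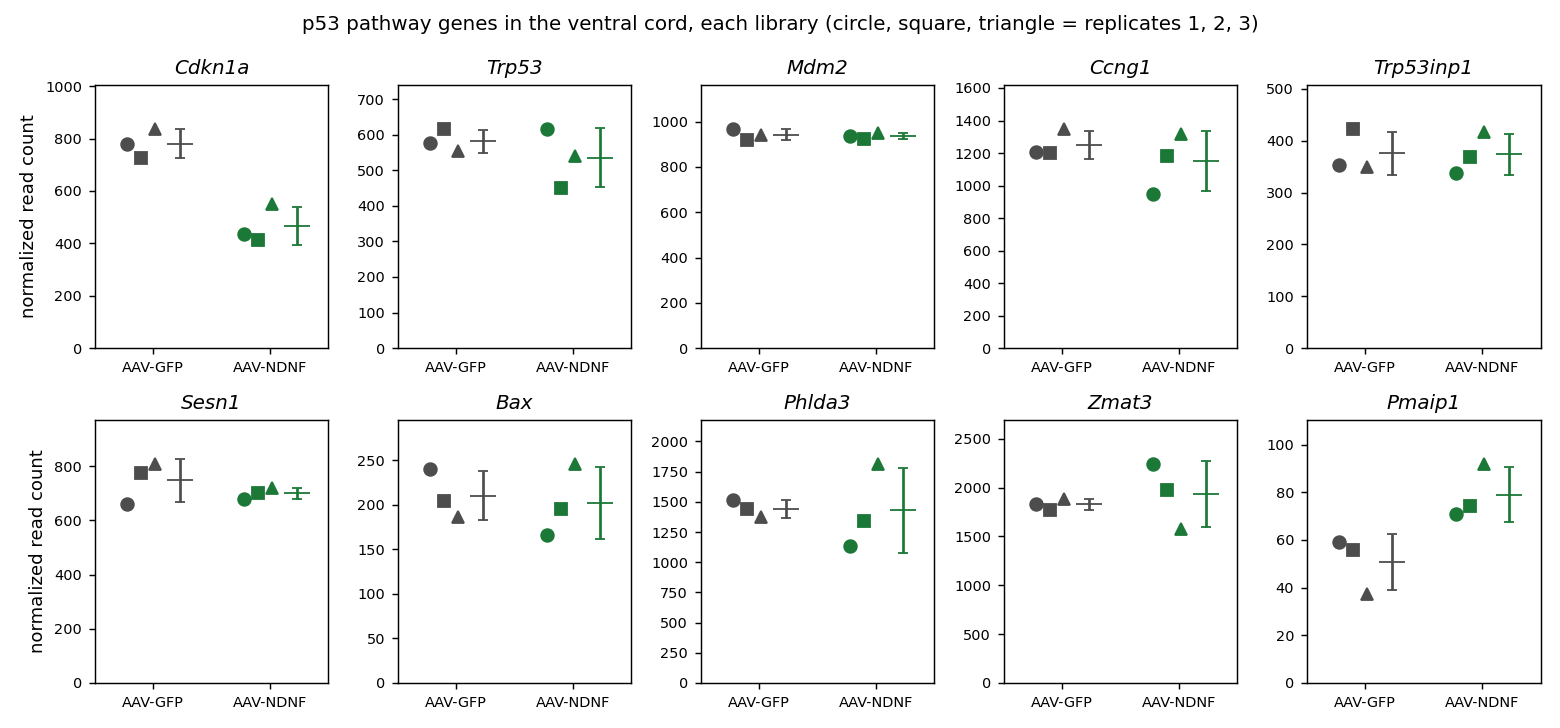
Normalized read counts of the 10 genes in each library, with AAV-GFP in grey and AAV-NDNF in green; circles, squares and triangles are replicates 1, 2 and 3, and the bars beside them show the mean and SD (n = 3). Cdkn1a drops from a mean of 781 to 466 and Pmaip1 is higher in each AAV-NDNF library, whereas the groups overlap for the other 8 genes.

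The mouse Cdkn1a gene lies on chromosome 17 from 29090976 to 29100727 on the plus strand (mm10, GENCODE M21), and RefSeq (GRCm38.p6) lists 2 transcription starts, 2790 bases apart. The stretches before both starts are shown because one of them holds a p53 site. p53 binds DNA as paired decamers, so windows of 300 bases (250 before to 50 after each start) were searched on both strands for 20 bases made of 2 abutting p53 decamers, with the C and G of each core kept and at most 1 other mismatch to the p53 consensus. That rule was set with the Cdkn1a window in view. Capitals mark the match, at chr17:29090928-29090947, which lies outside annotated genes and starts 51 bases before the upstream start and 2841 bases before the downstream one.
Cdkn1a, before the upstream start (chr17:29090819-29090968, plus strand): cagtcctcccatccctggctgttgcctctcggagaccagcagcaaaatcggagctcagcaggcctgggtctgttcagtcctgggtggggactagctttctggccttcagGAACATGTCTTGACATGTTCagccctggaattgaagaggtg
Cdkn1a, before the downstream start (chr17:29093609-29093758, plus strand, no match): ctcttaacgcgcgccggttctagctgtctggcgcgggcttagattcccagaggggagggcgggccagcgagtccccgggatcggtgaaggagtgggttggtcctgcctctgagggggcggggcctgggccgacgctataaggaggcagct

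Such a match is rare near transcription starts, as 22 of 32851 RefSeq promoter windows (0.067%) held one. Windows were found for 7 of the 10 genes; Trp53inp1, Zmat3 and Pmaip1 had none in the table used. Of those 7, Cdkn1a and Ccng1 held the 20-base match, as did Rps27l among 31 other p53 targets with a window. The matches of Ccng1 and Rps27l are shown in capitals for comparison with that of Cdkn1a. The Ccng1 match (chr11:40755462-40755481) lies outside annotated genes, and the Rps27l match (chr9:66946296-66946315) lies in an intron of Rps27l.
Ccng1 (chr11:40755432-40755511, minus strand): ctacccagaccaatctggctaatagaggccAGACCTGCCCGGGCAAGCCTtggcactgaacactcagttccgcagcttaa
Rps27l (chr9:66946266-66946345, plus strand): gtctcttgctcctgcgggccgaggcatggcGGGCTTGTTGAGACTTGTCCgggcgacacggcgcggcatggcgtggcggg

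The differences of the 3 genes with this kind of site stand side by side here, and were not tested against each other. Beside −0.75 for Cdkn1a, the log2 difference was −0.13 for Ccng1 (interval −0.43 to 0.16) and −0.27 for Rps27l (interval −0.81 to 0.27), and for both the groups overlapped. Rps27l, a ribosomal protein paralogue induced by p53, had means of 155 ± 14.5 (AAV-GFP) and 133 ± 44.6 (AAV-NDNF); its reads may be shared with the similar gene Rps27. Of the 22 windows' genes 7 were tested, and their log2 differences ran from −0.75 for Cdkn1a and then −0.27 up to 0.02. A match is a description of the letters, not a measure of binding.

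A single exact p53 decamer, counted whether or not it is part of a paired match, is more common. It was found for 9.55% of all genes with a window, for 6 of 31 other p53 targets (19.4%) and for 6 of the 7 genes, Phlda3 being the one without. By window the shares were 8.36% of all and 6 of the 9 of these genes. The only exact decamer of Ccng1 lies inside its paired match, and Cdkn1a holds a decamer inside its match and another outside it. For Mdm2, Sesn1, Bax and Trp53 the decamer is shown in capitals, since these genes hold no paired site in the windows. It lay outside annotated genes for Mdm2 (chr10:117710935-117710944) and Trp53 (chr11:69580284-69580293). It lay in an intron of Sesn1 for Sesn1 (chr10:41887266-41887275) and in an intron of Gm45808 for Bax (chr7:45467090-45467099).
Mdm2 (chr10:117710905-117710974, minus strand): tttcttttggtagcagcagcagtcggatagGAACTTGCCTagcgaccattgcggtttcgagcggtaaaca
Sesn1 (chr10:41887236-41887305, plus strand): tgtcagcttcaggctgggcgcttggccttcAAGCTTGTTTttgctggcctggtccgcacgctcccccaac
Bax (chr7:45467060-45467129, minus strand): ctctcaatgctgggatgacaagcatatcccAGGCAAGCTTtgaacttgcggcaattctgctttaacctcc
Trp53 (chr11:69580254-69580323, plus strand): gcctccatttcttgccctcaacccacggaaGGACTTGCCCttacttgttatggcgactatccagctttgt

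Neither p53 nor its feedback inhibitor differed between the groups beyond the spread between libraries. Trp53 (chromosome 11, 69580359 to 69591873) was 576, 617 and 553 in the controls and 616, 449 and 541 after AAV-NDNF. One AAV-NDNF library lay inside the control range and the other two below it. The log2 difference was −0.13 (interval −0.44 to 0.18), and it was −0.24 without AAV-NDNF library 1 and −0.0093 without library 2. Mdm2 (chromosome 10, 117688875 to 117710758), which marks p53 activity because p53 induces it, was the steadiest of the 10. It was 969, 921 and 941 in the controls and 939, 923 and 952 after AAV-NDNF, so that all 6 libraries lay within a 1.05-fold range. Its log2 difference was −0.01, with an interval from −0.24 to 0.22, or 0.849 to 1.16 times the control level.

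The ratio of Cdkn1a to Mdm2 within a library does not depend on how libraries are scaled. It was 0.806, 0.789 and 0.890 in the controls and 0.463, 0.448 and 0.579 after AAV-NDNF. Since Mdm2 was nearly level, this ratio restates the values by which Cdkn1a was chosen.

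Targets that restrain growth or feed back on p53 showed small differences. Ccng1 (cyclin G1, which recruits a phosphatase to Mdm2; chromosome 11, 40748552 to 40755311) was 1204, 1197 and 1349 in the controls and 950.4, 1180.3 and 1316 after AAV-NDNF. Libraries 1 and 2 of the AAV-NDNF group lay below the control range, library 2 only slightly, and library 3 lay inside it. Zmat3 (an RNA-binding protein that acts as a growth suppressor; chromosome 3, 32334792 to 32366014) was 1834, 1767 and 1885 against 2246, 1975 and 1576. It spread to both sides of the controls, with a log2 difference of 0.07 (interval −0.23 to 0.36). Trp53inp1, a stress protein that promotes p53 activity and autophagy (chromosome 4, 11156431 to 11174379), was 354, 423 and 350.3 against 337, 368 and 416. Its means of 376 ± 41.1 and 374 ± 39.8 were the closest of the 10 genes, in percent.

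Sesn1 (sestrin 1, which restrains mTORC1 signalling; chromosome 10, 41809935 to 41908424) was 659, 775 and 809.6 in the controls and 678, 701 and 719.7 after AAV-NDNF. All AAV-NDNF libraries lay inside the control range, and the log2 difference was −0.09 (interval −0.36 to 0.17). It was −0.18 without AAV-GFP library 1 and −0.03 without AAV-GFP library 3.

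None of the apoptotic members passed the test. Bax, which permeabilises the mitochondrial outer membrane (chromosome 7, 45461697 to 45466898), was 240.1, 204 and 186 in the controls and 167, 195 and 246 after AAV-NDNF, with a log2 difference of −0.06 (interval −0.49 to 0.36). It shares 12.2% of its exonic length with the overlapping gene model Gm45808, whose reads cannot be told apart there. Phlda3, a repressor of the survival kinase Akt (chromosome 1, 135766119 to 135769136), was 1512, 1440.5 and 1370.4 against 1135, 1338 and 1817. Its AAV-NDNF libraries lay on both sides of the controls and its SD was 350.1 there against 71.0 in the controls, so that a log2 difference of −0.04 came with an interval from −0.38 to 0.31. Pmaip1 (Noxa, a BH3-only protein that frees Bax; chromosome 18) was 58.9, 55.7 and 37.4 in the controls and 70.6, 74.3 and 92.0 after AAV-NDNF. Each AAV-NDNF library was above each control, the opposite of Cdkn1a, and the means were 50.7 ± 11.6 and 79.0 ± 11.4. The log2 difference of 0.65 (SE 0.28, interval 0.04 to 1.26) had an unadjusted p of 0.0387 in limma but did not pass over all genes (Benjamini-Hochberg adjusted p = 0.997, higher in 3 of 3 libraries).

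**Figure D2:**
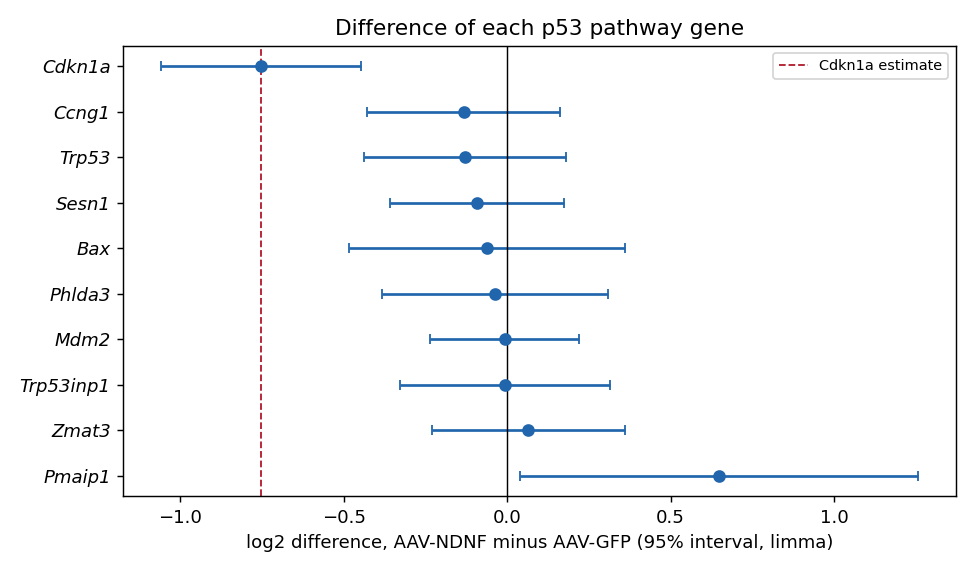
Log2 difference (AAV-NDNF minus AAV-GFP, horizontal axis) of each of the 10 genes with its 95% interval from limma; the dashed line marks the estimate for Cdkn1a, the gene chosen by this difference. The intervals of 8 genes include 0, that of Pmaip1 lies above 0, and differences between genes were not tested. The interval drawn for Cdkn1a comes from the values that chose the gene and is not a test.

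None of the 9 genes passed limma over all 17480 genes tested (0% of all genes passed), and none passed edgeR's quasi-likelihood test (0% of all genes) or DESeq2 (0.315% of all genes). Pmaip1 was the 1 of 9 with an unadjusted p under 0.05 in limma, in a direction in which 1.15% of all genes had one (4.68% in either direction), and also the 1 of 9 in edgeR (4.6% of all genes in either direction). It was also the 1 of 9 whose groups did not overlap, in a direction that 4.26% of all genes took (9.75% in either direction); with 9 genes neither count sets the list apart. The other 8 differed by −8.11% to 5.69%, with unadjusted p from 0.345 to 0.965 in limma. Differences inside these intervals, which for Bax reach down to 0.714 times the control level, were not detectable at this spread. The median log2 difference of the 9 genes was −0.04, where that of all tested genes was 0.00083.

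Per kilobase of exon, Cdkn1a changed its place among the 10. In the controls Phlda3 was highest at 924 ± 45.5 normalized counts per kilobase, followed by Ccng1 at 356 ± 24.4 and Cdkn1a at 219.9 ± 15.7. Sesn1 (188 ± 19.8) and Mdm2 (186 ± 4.74) came next and did not differ beyond their spread. Zmat3 (159.9 ± 5.19), Trp53 (144 ± 7.94) and Bax (133 ± 17.5) followed, and Trp53inp1 (58.0 ± 6.36) and Pmaip1 (18.6 ± 4.25) were lowest. After AAV-NDNF Cdkn1a stood at 131 ± 20.8 per kilobase, level with Trp53 (132 ± 20.7) and Bax (129 ± 25.7). Of the exonic length of Cdkn1a, 7.68% lies opposite an antisense gene model, from which reads cannot be told apart without strand.

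AAV-NDNF library 3 was the highest of its group for 8 of the 10 genes, the exceptions being Trp53 and Zmat3. How often it is highest over all genes was not counted, and the 8 include genes whose groups overlap, such as Mdm2. The same library had the least Ndnf, and a relation between the 2 was not tested. It also stood apart over all tested genes, at −52.0 on the first principal component (the main axis of variation). The other libraries lay from −1.76 to 40.3, and the one at the opposite end, at 40.3, was AAV-GFP library 2. Without AAV-NDNF library 3 the log2 difference of Cdkn1a was −0.88, the most negative value when any single library was left out, and that of Ccng1 was −0.24. Without AAV-NDNF library 2 it was −0.67 for Cdkn1a, the least negative. Ccng1 was −0.0025 without AAV-NDNF library 1.

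Other p53 targets were examined by role from lists set by function. Of 37 such genes 36 were tested, all but Gdf15, and 18 had log2 differences below 0 and 18 above, with a median of −0.01. None passed limma, edgeR or DESeq2; at an unadjusted p under 0.05 limma had 1 gene, lower (3.53% of all genes were lower), and edgeR had 0. That gene was Dram1, a lysosomal membrane protein that links p53 to autophagy, at 52.7, 33.2 and 34.2 in the controls and 27.8, 18.0 and 20.8 after AAV-NDNF. All of its AAV-NDNF libraries were below the controls, and the log2 difference was −0.81 (interval −1.61 to −0.01). It was the 1 of 36 in that class, which 5.5% of all genes fell in, and 2 of 36, Ak1 and Fbxw7, lay wholly above (4.26% of all genes).

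By role, the 8 arrest targets had a median log2 difference of 0.01, the 11 apoptosis targets −0.03, the 9 metabolic targets −0.08 and the 8 repair and nucleotide supply targets 0.02. Among arrest genes the smallest p-values were those of Btg2, an antiproliferative factor, at 176 ± 2.22 against 149.9 ± 22.6, and Gadd45a, a stress sensor, at 349 ± 34.4 against 409 ± 109. Among apoptosis genes they were those of the death receptor Tnfrsf10b, at 20.4 ± 20.7 against 26.7 ± 6.27, and Apaf1, the scaffold of the apoptosome, at 205 ± 37.4 against 171 ± 7.30. Among repair genes Ercc5, a nuclease of nucleotide excision repair, was 466 ± 17.7 against 423 ± 33.8, and Fbxw7, a ubiquitin ligase subunit, was 1156 ± 73.2 against 1274 ± 32.3. None of these 6 genes had an unadjusted p under 0.05.

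Regulators of p53 did not move in one direction either. Of 17 listed, 15 were tested; Cdkn2a and Trp73 were too low. Of these, 7 were below 0 and 8 above, with a median of 0.01, and 0 had an unadjusted p under 0.05 in limma or edgeR. The smallest p-values were those of the damage kinases Atr, at 396 ± 50.6 against 319 ± 3.94, and Chek2, at 72.0 ± 12.3 against 96.4 ± 19.0. Atr was the 1 of 15 that lay wholly lower (5.5% of all genes), and 1 of 15 lay wholly higher (4.26% of all genes).

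**Figure D3:**
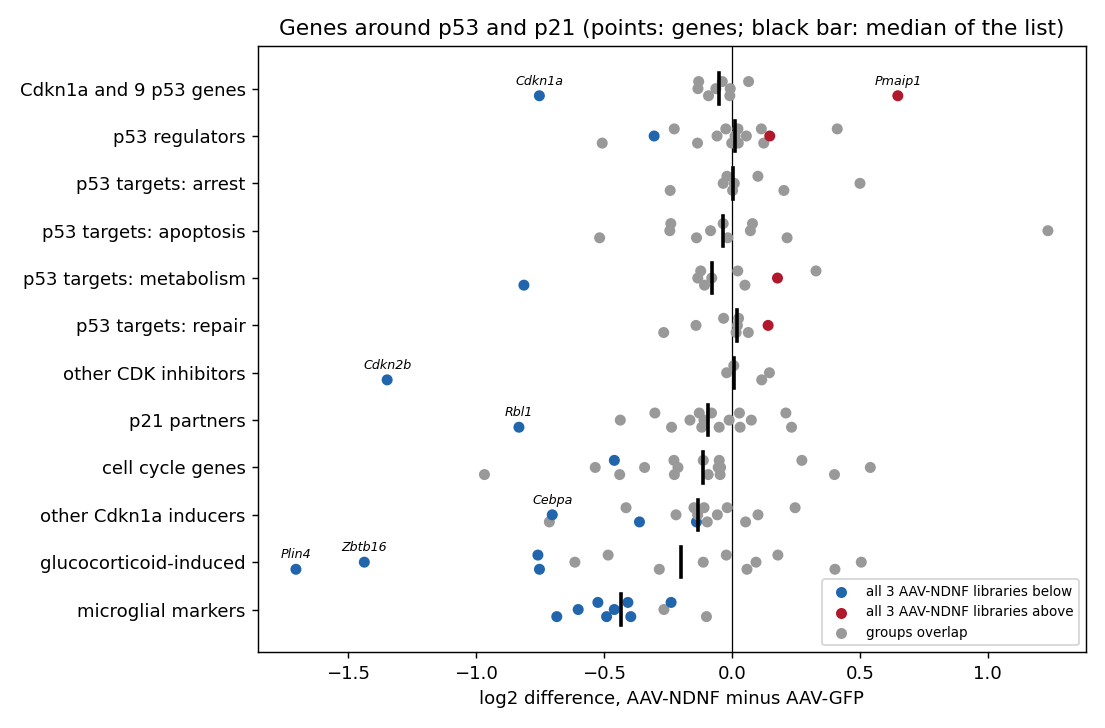
Log2 difference (AAV-NDNF minus AAV-GFP, horizontal axis) of every tested gene in the lists around p53 and p21; blue and red points are genes whose 3 AAV-NDNF libraries all lie below or above the controls, grey points overlap, and black bars are list medians. The p53 lists centre near 0, whereas the microglial markers centre at −0.43 and the glucocorticoid-induced list has a tail of low genes.

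The list of CDK inhibitors leaves out Cdkn1a, and none of its 5 tested genes passed limma. Cdkn2b (p15, an inhibitor of CDK4 and CDK6 that TGF-beta induces) was 25.0, 39.1 and 39.5 in the controls and 8.41, 16.9 and 14.2 after AAV-NDNF. No AAV-NDNF library reached a control, and the log2 difference was −1.35 (SE 0.43), but these are low counts and limma gave an adjusted p of 0.804. It was the 1 of 5 tested with an unadjusted p under 0.05 (background 3.53% lower). The other 4 tested inhibitors lay between −0.02 and 0.15.

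The next list holds the cyclins, kinases, PCNA and pocket proteins that p21 acts on. Of 16 genes, 11 were below 0 and 5 above (median −0.09), and 0 passed limma. Rbl1 (p107, a pocket protein that represses E2F genes) was the 1 of 16 with an unadjusted p under 0.05 (3.53% of all genes were lower at that threshold), at 128, 97.7 and 113 in the controls and 84.1, 45.0 and 64.6 after AAV-NDNF. Its groups did not overlap, and the log2 difference was −0.83 (SE 0.27, limma adjusted p = 0.819).

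None of the cell cycle genes that p21 holds down through the RB family passed limma. Of 20 listed, 17 were tested; 14 were below 0 and 3 above (49.9% of all tested genes were below 0), with a median of −0.11. Mcm6, a subunit of the replicative helicase, was the 1 of 17 with an unadjusted p under 0.05 (again against 3.53% of all genes), at 184, 183 and 166 in the controls and 108, 131 and 150.1 after AAV-NDNF. All of its AAV-NDNF libraries were below the controls (log2 difference −0.46, SE 0.19, limma adjusted p = 0.997). The list's abundance was low: its 17 tested genes summed to 1049 to 1289 normalized counts in the controls and 965 to 1092 after AAV-NDNF.

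Among 15 transcription factors other than p53 that are known to act on Cdkn1a, 3 were lower in all AAV-NDNF libraries (5.5% of all genes), Cebpa being 1 of them. Of the 15 factors, 12 were below 0 and 3 above (49.9% of all tested genes were below 0), with a median of −0.13. In limma 2 had an unadjusted p under 0.05, both lower (3.53% of all genes). Cebpa, a factor of myeloid cells and glia that can raise p21, was 421, 513 and 503 in the controls and 309, 261 and 312 after AAV-NDNF. Its groups did not overlap (log2 difference −0.70, SE 0.15, limma adjusted p = 0.364). DESeq2 on the recovered reads gave Cebpa an adjusted p of 0.0158, where 0.315% of all genes passed. Cebpa was not alone in this, as Pdk4 (DESeq2 adjusted p = 0.0194) and Csf1r (DESeq2 adjusted p = 0.00413), both described below, passed as well.

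Glucocorticoids also induce Cdkn1a in several tissues, and the list of other glucocorticoid-induced genes was uneven. Of 14 genes, 9 were below 0 and 5 above, with a median of −0.20, and 6 had an unadjusted p under 0.05, all of them lower (3.53% of all genes). Pdk4, a kinase that limits pyruvate oxidation, was 547, 793 and 519 in the controls and 383, 334 and 363 after AAV-NDNF (limma adjusted p = 0.442). Zbtb16, a zinc finger repressor, was 986, 374 and 993 against 331, 213 and 261 (limma adjusted p = 0.530). Fkbp5, a co-chaperone of the steroid receptor, was 999, 569 and 982 against 495, 430.2 and 548 (limma adjusted p = 0.549). Plin4, a lipid droplet coat protein, was 1497, 399.7 and 1448 against 378, 202 and 328 (limma adjusted p = 0.922). In Zbtb16, Fkbp5 and Plin4 control library 2 lay just above the AAV-NDNF libraries and far below the other controls. Without it these 3 genes were among 43 that passed limma, where 0 passed with all 6 libraries, with adjusted p of 0.00646 for Zbtb16 and Plin4 and 0.0323 for Fkbp5. None of the 3 passed when any other single library was left out. Their limma adjusted p then ran from 0.465 (Fkbp5, without AAV-NDNF library 1) to 0.9998 (all 3 genes, without AAV-NDNF library 2). Other genes of the list lay on the other side, such as Sgk1 at 0.51 and Nfkbia at 0.40.

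The 6 genes whose level followed Cdkn1a most closely over the libraries were Grn, Slamf9, Pdlim7, Lat2, Ccl6 and Hexa. Pearson's r with Cdkn1a was computed for 12409 tested genes with a mean of at least 100 normalized counts and is a description over 6 libraries, which share the group difference by which Cdkn1a was chosen. By r they were Grn, the progranulin gene (0.996), Slamf9, a myeloid surface receptor (0.989), Pdlim7, a cytoskeletal adaptor (0.987), Lat2, a signalling adaptor of haematopoietic cells (0.985), Ccl6, a myeloid chemokine (0.981), and Hexa, a lysosomal hexosaminidase (0.980). After group means were subtracted the values were 0.965, 0.909, 0.888, 0.897, 0.941 and 0.850 in the same order. Grn was 3058, 2802 and 3072 in the controls and 1972, 1818 and 2279.5 after AAV-NDNF. For all 6, as for Cdkn1a, the groups did not overlap (5.5% of all genes lay wholly lower) and AAV-NDNF library 3 was the highest of its group. The 6 were picked as the highest by r over these same libraries. Their values after group means were subtracted, and these shared traits, therefore follow in part from that choice.

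The same measure is given for the 9 p53 genes, which were not picked from such a ranking. Over the 6 libraries r was 0.598 for Ccng1, 0.492 for Sesn1, 0.423 for Trp53, 0.353 for Mdm2, 0.341 for Phlda3, 0.339 for Bax, 0.117 for Trp53inp1, −0.434 for Zmat3 and −0.734 for Pmaip1. After group means were subtracted Phlda3 (0.729) and Ccng1 (0.676) were the highest of the 9 and Zmat3 (−0.694) the lowest. Phlda3 and Zmat3 ran opposite to each other within groups (−0.979). That pair was picked after its value was seen, as the most extreme of the 45 pairs among Cdkn1a and the 9 genes. The median r of those 45 pairs after group means were subtracted was 0.141, and each value rests on the same 6 libraries.

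**Figure D4:**
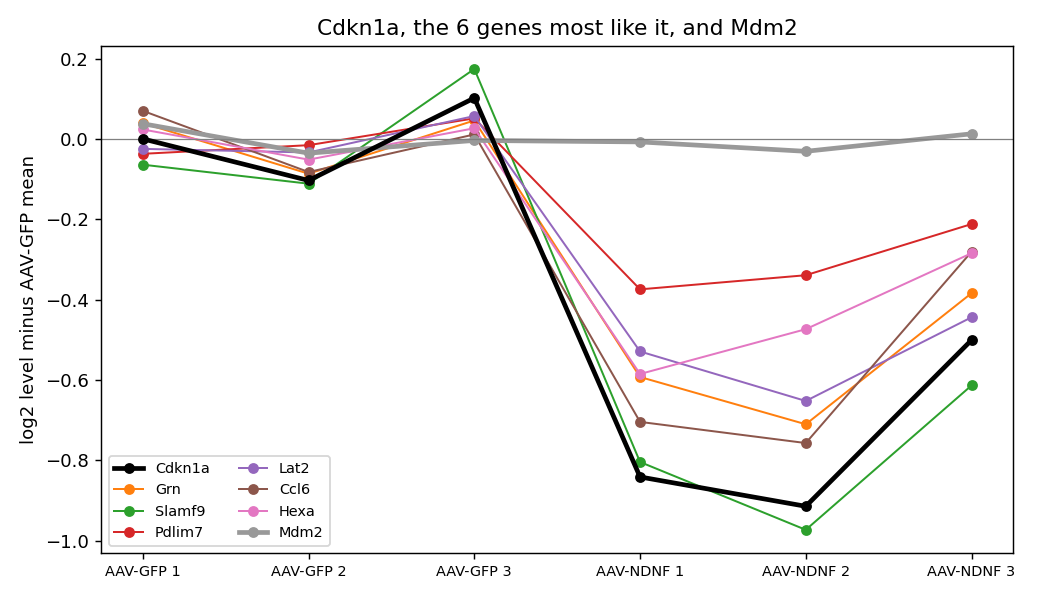
Log2 level in each library (horizontal axis) relative to the AAV-GFP mean for Cdkn1a (black), the 6 genes most like it and Mdm2 (thick grey); lines only join the points of a gene. Cdkn1a and the 6 genes are lower in all 3 AAV-NDNF libraries, least so in library 3, while Mdm2 stays near 0.

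Microglial marker transcripts moved with Cdkn1a, and their part in its difference was not tested. All 10 markers of the list were below 0, with a median of −0.43; 7 had an unadjusted p under 0.05 (3.53% of all genes lower) and 8 did not overlap between the groups (5.5% of all genes). Their summed level was 17471.5 to 18127 normalized counts in the controls and 12460.2 to 14943 after AAV-NDNF, and none was at 0. Csf1r, the survival receptor of microglia, was 4489, 4545 and 4315 in the controls and 3274, 3221 and 3016 after AAV-NDNF, so that library 3 was lowest of its group, unlike for Cdkn1a. Tyrobp, a signalling adaptor, was 649.5 ± 61.5 against 420.1 ± 155. The list of phagocyte state genes was also below 0 for all 10, with a median of −0.62, and 8 had an unadjusted p under 0.05. Trem2 and Cx3cr1 differed by −0.46 and −0.40 on the log2 scale. Relative to the control mean, the mean log2 level of the microglial list was −0.53, −0.49 and −0.22 in AAV-NDNF libraries 1 to 3. That of the phagocyte state list was −0.74, −0.70 and −0.51, and that of Cdkn1a was −0.84, −0.91 and −0.50. Markers of oligodendrocytes (5 of 10 below 0, median −0.01) and motor neurons (4 of 10 below 0, median 0.03) were balanced. Those of astrocytes were all below 0 (median −0.13) and those of neurons all above (median 0.20). Groups did not overlap for 2 of 10 astrocyte markers (5.5% of all genes lower) and 0 of 10 neuron markers (4.26% higher). In each of these lists 1 marker had an unadjusted p under 0.05 in limma (3.53% of all genes lower, 1.15% higher).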

How the data were processed

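Poly-A selected RNA of 6 samples was sequenced (Illumina NovaSeq, per the labels' protocols). Tools named in the submitters' processing notes are DESeq2, HTSeq, HISAT2 and cutadapt, with build mm10; their versions, the annotation and the strand setting are not given in the sources used here. The labels gave each sample its group and its replicate number. The per-sample values are a normalized signal, that is, reads per gene over a size factor of each library, as deposited by the authors. All values (100%) were whole multiples of the value of 1 read (tolerance 0.001), so reads could be recovered. The table also holds log2 fold changes, a Wald score and p-values of the authors, per the file headers; only fold changes with their SE are quoted, for Cdkn1a.

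The main test was limma 3.58.1 (R 4.3.3; trend, robust, two-sided) on log2(normalized count + 1) for genes that reached 10 normalized counts in 3 or more libraries, with Benjamini-Hochberg adjustment over all of them and a threshold of 0.05. edgeR 4.0.16 (quasi-likelihood) and DESeq2 1.42.0 on recovered reads were alternatives. Scripts were tested on simulated counts. Exon lengths and positions come from GENCODE M21 (mm10), promoter windows from RefSeq (GRCm38.p6).

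The genes and lists were chosen with earlier results of these data known. Named genes are the 10 genes, per list up to 4 with the smallest unadjusted p under 0.05 or else the 2 smallest, and the 6 most like Cdkn1a. Rps27l, Gdf15, Cdkn2a, Trp73, Sgk1, Nfkbia and Ak1 were named after their values were seen. Of the marker lists only the microglial one has named genes. All pairs of libraries differed by more than counting noise. One gene that the naming rule selects is not reported here.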

Additional observations from a re-analysis of the deposited data

How the results depend on the processing

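Across 16 alternatives (3 other tools, 2 scalings, 2 filters, 2 pseudocounts, a replicate block and leaving out each library) none of the 9 p53 genes and none of the 36 other targets passed the threshold, and Cdkn1a stayed between −0.88 and −0.67 on the log2 scale. The median of the 9 genes ran from −0.11 to −0.0022 when single libraries were left out. Of the 10 genes, 5 changed sign in some alternative, all from values near 0. Trp53inp1 was 0.028 in limma-voom. Leaving out libraries moved Trp53 between −0.24 and −0.0093, Ccng1 between −0.24 and −0.0025, Sesn1 between −0.18 and −0.031, Mdm2 between −0.026 and 0.011, Trp53inp1 between −0.086 and 0.082, Bax between −0.21 and 0.069, Phlda3 between −0.22 and 0.11, Zmat3 between −0.051 and 0.20, Gadd45a between −0.0034 and 0.34 and Tnfrsf10b between −0.073 and 2.18. Of the glucocorticoid-induced genes, Zbtb16 and Plin4 also passed with the replicate block (adjusted p = 0.00698). The shared replicate numbers did not pair the samples: residual correlations of same-numbered libraries were −0.09, 0.05 and 0.08, and 2 of 6 libraries correlated best with their own number. With the replicate block limma called 6 genes in place of 0 and none of the 9. The limma-voom fit called 167 genes, DESeq2 55 and limma without the filter 3, and in none of these was a p53 gene of the 9 included. Without AAV-GFP library 2 limma called 43 genes and without AAV-NDNF library 3 it called 11, again none of the 9. Tyrobp was among those 11 (limma adjusted p = 0.0414). With 3 libraries per group, intervals of the 8 genes other than Cdkn1a and Pmaip1 reach from 0.714 to 1.28 times the control level. Small differences of these genes were therefore not detectable. The interval of Pmaip1 ran from 1.03 to 2.39 times the control level.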

Other observations

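Genes of cellular senescence, a lasting arrest of which p21 is one marker, did not form a common pattern. Of 16 listed, 12 were tested; 7 were below 0 and 5 above, with a median log2 difference of −0.16. Cdkn2b, described above, was the 1 of 12 with an unadjusted p under 0.05 in limma (3.53% of all genes were lower at that threshold). In 2 of the 12, Cdkn2b and Il1a, all AAV-NDNF libraries lay below the controls (5.5% of all genes). Cdkn2a, which encodes p16 and p19Arf, was close to undetected, at 0.949 ± 0.978 normalized counts in controls and 2.58 ± 2.29 after AAV-NDNF (n = 3). Among secreted genes of that state, Mmp12, a macrophage elastase, was 138 ± 29.0 against 181 ± 40.8, and Il1a was 42.5 ± 5.53 against 32.4 ± 3.35, with every AAV-NDNF library below the controls. Both were named after their values were seen, and neither had an unadjusted p under 0.05.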
